A study of Mus musculus with 12 samples.

Results

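Maternal-effect genes are transcribed in the growing oocyte, and their RNA or protein is stored there for use after fertilisation. Nlrp5, Nlrp14, Ooep, Padi6, Tle6, Zar1, Npm2, Dppa3 and Mos were followed here as a set of 9 such genes in whole ovaries. They were taken by gene name from the array annotation with all their probes, which gave 10 of the 39429 distinct transcript probes and 9 of the 30119 named genes and transcripts. Each gene has 1 probe except Nlrp14, which has 2. All 10 probes were well above the local background in all 12 samples, and none was saturated. Of all transcript probes, 58.3% (P4) to 64.6% (E4) were well above background in a channel. Such signal shows that the probes could be read and does not show which cells it came from.

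As background, NLRP5 (MATER), OOEP (FLOPED) and TLE6 are core proteins of the subcortical maternal complex, which lies under the egg membrane and is needed for the first cleavages of the mouse embryo. PADI6, a member of the peptidylarginine deiminase family, is needed for the cytoplasmic lattices that store maternal proteins and ribosomes. NLRP14 belongs to the same NLRP family as NLRP5. ZAR1 binds stored RNA, NPM2 is a histone chaperone, DPPA3 (Stella) protects DNA methylation of the maternal genome, and MOS is the kinase that holds the ovulated egg in meiotic arrest. These transcripts are known from oocytes, which are a small part of the tissue in a whole ovary.

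Ovaries of 12 adult female C57BL/6J mice, an inbred strain, were collected at 2 months of age, minced and hybridised to 6 Agilent arrays that each read a Cy3 and a Cy5 sample. Control mice (C1 to C4) ate a normal diet, early-life mice (E1 to E4) a diet deficient in vitamin D (VD) only during early life, and peripubertal mice (P1 to P4) such a diet only around puberty. Each group held 4 females, stated to be biological replicates, odd numbers carried Cy3 and even numbers Cy5, and each array held 2 samples of the same group. No cells were sorted, and in bulk ovary RNA fewer oocytes and less RNA per oocyte cannot be told apart. The median signal of a channel was 6.85 to 9.49 times its median background. Control and early-life arrays shared a slide and a scan, and the peripubertal arrays were on another slide, and the effect of the slide and that of the peripubertal diet cannot be told apart.

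The names of the control and early-life arrays are not settled. Names below follow the scanner output. The value table deposited beside it goes the other way: every control column there matched a scanner channel named early-life and every early-life column one named control (correlation across probes of 0.99977 to 0.99982), while the 4 peripubertal columns matched no array (best correlation 0.874 to 0.897). If the table is right, each early-life minus control difference below takes the opposite sign, and the peripubertal comparisons trade places and also take the opposite sign.

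The positions of the 10 probes, each 60 bases long, refer to mouse build mm9, for which no gene annotation was used. Those of Nlrp5 (chr7:24226882-24226940), Padi6 (chr4:140283271-140283330) and Dppa3 (chr6:122580207-122580266) hold the polyadenylation signal AATAAA on the transcript strand, as do 12.6% of all probes on the array. Ooep was read at chr9:78224804-78224863, Tle6 at chr10:81053702-81053761 and Zar1 at chr5:72968441-72968500. Npm2 was read at chr14:71047255-71047314 and Mos at chr4:3798594-3798653. The RefSeq table (GRCm38.p6) lists pseudogenes named Nlrp5-ps, Zar1-ps and Dppa3-ps, and RNA of a near-identical copy could not be told from that of the gene. The Nlrp14 probes are shown because they gave different numbers of usable spots. Both lie on the plus strand of chromosome 7, at chr7:114333662-114339569 for the first, whose 60 bases are spread over a span of 5908 bases, and at chr7:114334673-114334732 for the second. The second position lies inside the span of the first, and whether both probes read the same transcript was not tested. Their sequences are written 5′ to 3′:
Nlrp14 first probe: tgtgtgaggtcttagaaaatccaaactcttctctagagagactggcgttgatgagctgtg
Nlrp14 second probe: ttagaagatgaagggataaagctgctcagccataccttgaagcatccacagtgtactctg

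RefSeq promoter windows (build GRCm38.p6) were at hand for 5 of the 9 genes. E-boxes, with the letters CANNTG, are bound by basic helix-loop-helix factors such as FIGLA, and TAATTG is the motif known for NOBOX, both transcription factors of the oocyte. Searched on both strands in the 250 bases before the start site, an E-box was found in all 7 windows of these 5 genes and in 66.2% of 32851 promoter windows of all genes. The NOBOX motif was found in 1 of the 7 windows, that of Ooep, and in 7.17% of all windows. Of 48 windows of other oocyte genes, 89.6% held an E-box and 8.33% the NOBOX motif. The windows of the 3 genes with a single window each are printed 5′ to 3′ with the motifs in capitals. All 3 lie on the minus strand, at chr9:78378589-78378838 for Ooep, chr4:140742644-140742893 for Padi6 and chr5:72581085-72581334 for Zar1. The Zar1 window lies inside the RefSeq span of that gene, 72577113 to 72581361, while those of Ooep and Padi6 lie just outside theirs. CAATTA in the Ooep window is the NOBOX motif on the other strand, and no motifs overlap in these windows:
Ooep: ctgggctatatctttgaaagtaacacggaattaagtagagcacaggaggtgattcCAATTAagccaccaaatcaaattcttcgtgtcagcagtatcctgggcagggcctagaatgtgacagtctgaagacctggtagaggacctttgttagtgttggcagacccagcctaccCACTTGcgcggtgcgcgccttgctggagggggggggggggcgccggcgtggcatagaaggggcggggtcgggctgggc
Padi6: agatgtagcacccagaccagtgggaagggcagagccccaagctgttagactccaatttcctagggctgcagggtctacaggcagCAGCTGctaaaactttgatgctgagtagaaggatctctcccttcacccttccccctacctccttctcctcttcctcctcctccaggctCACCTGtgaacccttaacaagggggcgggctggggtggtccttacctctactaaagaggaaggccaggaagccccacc
Zar1: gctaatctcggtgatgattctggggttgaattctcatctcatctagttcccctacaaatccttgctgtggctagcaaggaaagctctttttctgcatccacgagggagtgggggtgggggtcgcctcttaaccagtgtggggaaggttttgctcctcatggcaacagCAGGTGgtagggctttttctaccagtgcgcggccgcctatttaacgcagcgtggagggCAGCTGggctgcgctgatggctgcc
A match of letters is a description of the window and does not show that a factor binds there.

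No maternal-effect gene passed the test in any of the 3 comparisons between diets. What varied was the single sample: E2 and C2 read highest for these transcripts and E4 lowest, and the members varied together from sample to sample. Ovary, labelling and array cannot be told apart as sources of this variation. Levels are given below as log2 of the normalized signal, so that a difference of 1 is a doubling. They are compared between samples within a probe only, since probes differ in brightness.

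The subcortical complex genes are taken first. Nlrp5 measured 12.32, 12.53, 11.88 and 11.78 in C1 to C4, 12.40, 12.76, 12.07 and 11.91 in E1 to E4, and 12.09, 12.05, 11.86 and 11.84 in P1 to P4. E2 and C2 were highest, C4 was lowest, and the 3 groups overlapped. Control ovaries averaged 12.13 ± 0.36, early-life ovaries 12.28 ± 0.38 and peripubertal ovaries 11.96 ± 0.13 (SD, n = 4 each). The difference of early-life from control was 0.16, with a 95% interval of -0.34 to 0.65 (limma, adjusted p = 0.758).

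Tle6, a transducin-like protein of the same complex, measured 13.86, 14.21, 13.99 and 13.92 in C1 to C4. Its values were 14.19, 14.35, 13.89 and 13.60 in E1 to E4 and 14.07, 13.67, 14.23 and 14.10 in P1 to P4. E2 and P3 lay at the top and E4 and P2 at the bottom, so each deficient group held high and low ovaries. The group means lay within 0.021 of each other, with control at 14.00 ± 0.15, early-life at 14.01 ± 0.33 and peripubertal at 14.02 ± 0.24 (SD, n = 4 each).

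Ooep measured 7.28, 7.44, 7.07 and 7.11 in C1 to C4, 7.42, 7.46, 7.21 and 7.18 in E1 to E4, and 7.44, 7.38, 7.53 and 7.34 in P1 to P4. The 4 peripubertal values all lay above 3 of the 4 controls, and C2 lay among them. This was the dimmest probe of the set, at 3.09 to 6.95 times background, and on the log2 scale with its offset of 50 a change at such a level is understated. Its SD over all samples, 0.15, was the smallest of the members with complete values. How much of this signal is Ooep RNA was not tested. The peripubertal minus control difference was 0.20 with a 95% interval of -0.058 to 0.45 (limma, adjusted p = 0.552), the smallest adjusted p of any member in that comparison.

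Padi6 measured 12.36, 12.69, 12.24 and 12.21 in C1 to C4 and 12.70, 13.05, 12.56 and 12.16 in E1 to E4. In P1 to P4 it measured 12.51, 12.32, 12.28 and 12.46. E2 and E1 were the 2 highest of the 12, with C2 almost level with E1, and E4 was the lowest. The early-life minus control difference was 0.24, with a 95% interval of -0.21 to 0.70 (limma, adjusted p = 0.583).

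Nlrp14 was read by both probes, and they have to be taken apart. The first probe measured 10.30, 10.93, 10.27 and 10.35 in C1 to C4, 10.85, 11.34, 10.62 and 10.24 in E1 to E4, and 10.58, 10.21, 10.80 and 10.82 in P1 to P4. C2 stood well above the other controls, E2 above all samples, and the groups overlapped. The early-life minus control difference of this probe was 0.30, with a 95% interval of -0.32 to 0.92 (limma over all probes, adjusted p = 0.633). The second, brighter probe stood for the gene in the fit across genes, but the scanner software had set aside 6 of its 12 spots as non-uniform, in C1, C2 and all 4 peripubertal samples. Its remaining values were 10.33 and 10.68 in C3 and C4 and 11.74, 12.07, 11.30 and 10.92 in E1 to E4. On these the difference was 1.00 ± 0.39 (SE), with a limma unadjusted p of 0.0474 and an adjusted p of 0.356, and it rests on 2 controls, C3 and C4. With the set-aside spots kept, C1 read 10.94 and C2 11.59 on the second probe, the groups overlapped, and the difference was 0.63 ± 0.34 (SE; limma, adjusted p = 0.433). The 2 probes thus gave differences of 0.30 and 0.63 on the same 8 ovaries, and neither passed the test.

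Zar1 could not be tested, since 9 of its 12 spots were set aside and only E1, E2 and E4 kept a value, at 13.14, 13.43 and 12.59. With the set-aside spots kept, it read 12.75, 12.87, 12.67 and 12.59 in C1 to C4 and 13.21 in E3. The peripubertal ovaries then read 12.68, 12.41, 12.99 and 12.86. E1, E2 and E3 lay above all 4 controls and above all peripubertal ovaries, while E4 was level with the lowest control. In that setting the early-life minus control difference was 0.37 ± 0.21 (SE; limma, adjusted p = 0.441).

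Npm2, the histone chaperone, measured 12.25, 12.87, 11.90 and 12.22 in C1 to C4, 12.59, 12.94, 12.19 and 11.86 in E1 to E4, and 11.89, 11.74, 12.26 and 12.37 in P1 to P4. It had the widest range of the 8 members with 12 values, 1.20 from P2 to E2. Its early-life minus peripubertal difference was 0.33 with a 95% interval of -0.31 to 0.97 (limma, adjusted p = 0.510).

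Dppa3 measured 10.42, 10.69, 10.31 and 10.16 in C1 to C4, 10.47, 10.94, 10.45 and 9.98 in E1 to E4, and 10.34, 10.57, 10.35 and 10.27 in P1 to P4. The highest and the lowest of the 12 values were both early-life ovaries, E2 and E4, 0.95 apart. Means were close, with control at 10.39 ± 0.22, early-life at 10.46 ± 0.39 and peripubertal at 10.38 ± 0.13 (SD, n = 4 each).

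Mos measured 8.62, 8.96, 8.17 and 8.34 in C1 to C4, 8.57, 8.86, 8.11 and 7.88 in E1 to E4, and 8.26, 8.07, 8.55 and 8.65 in P1 to P4. It was the 1 member whose highest value was in a control ovary, C2, and the 1 tested member with a lower mean in early-life than in control ovaries. That difference was -0.17, with a 95% interval of -0.74 to 0.40 (limma, adjusted p = 0.769).

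**Figure D1:**
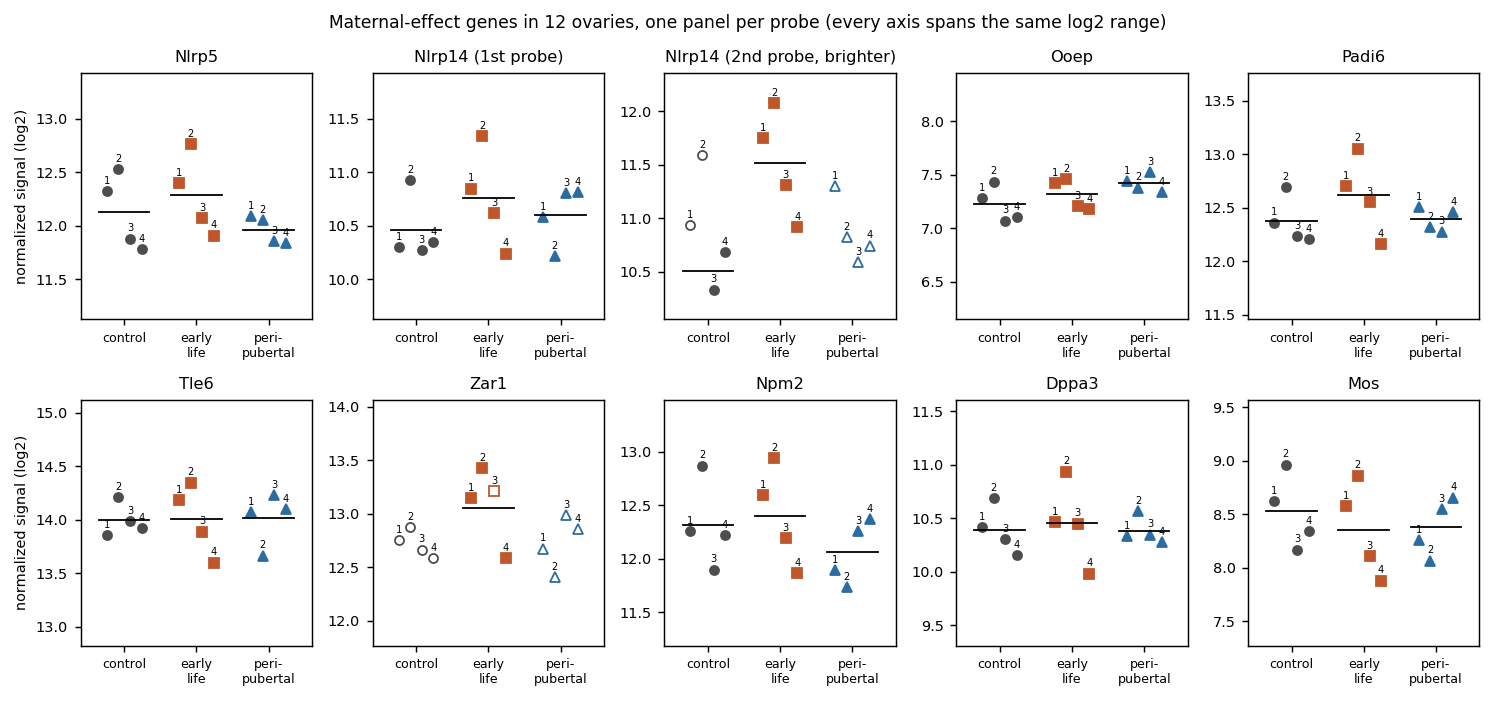
Normalized signal (log2) of each of the 10 probes in the 12 ovaries, by group, with the replicate number above each point. Filled points are values used in the tests, open points are spots that the scanner software set aside, and lines are means of the filled points. The groups overlapped on every probe with 4 filled points a group, and E2 was among the 2 highest samples on each of these probes.

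The question put to the diets was whether a deficiency of vitamin D confined to early life or to puberty leaves a difference in adult ovaries. Of the 8 members tested for early-life against control, 0 passed at an adjusted p under 0.05 (limma), and 1, Nlrp14, had an unadjusted p under 0.05. Over all genes 0.0214% were called in that comparison (4 of 18735), and 13.9% had an unadjusted p under 0.05 (2598 genes), so a count of 0 among 8 lies near the background. Of the 7 members tested in each of the other comparisons, 0 passed and 0 had an unadjusted p under 0.05, against 0.267% of all genes called for peripubertal against control and 2.43% for early-life against peripubertal. Unadjusted, 11.4% and 23.7% of all genes had a p under 0.05 in these comparisons. Values of both groups lay fully apart in 12.3%, 9.61% and 20.2% of genes with 4 values a group in the 3 comparisons, and in 0 of the 8 members with 4 values a group (first probe for Nlrp14). All comparisons share samples, and the last rests on the same early-life and peripubertal ovaries as the others.

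The median difference over the 8 tested members was 0.090 for early-life minus control, against -0.022 over all genes. Of the 8, 7 were positive, against 45.8% of all genes, but the members varied together and are not 8 separate observations. Over the 7 members tested in the other comparisons, without Nlrp14, the median was -0.012 for peripubertal minus control (0.0095 over all genes). It was 0.078 for early-life minus peripubertal (-0.032 over all genes). Without E2 the first turned to -0.017 and the last to -0.077. Without E4 they were 0.26 and 0.25, without C2 the first was 0.21 and the peripubertal minus control median 0.079. The direction of the median over these genes therefore rested on single samples. Apart from the second Nlrp14 probe, the intervals of early-life minus control lay between -0.74 and 0.92, so that differences of up to about this size in either direction were within the error of 4 against 4 ovaries.

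Early-life had the highest mean of the 3 groups in Nlrp5, Nlrp14 (first probe), Padi6, Npm2 and Dppa3. The peripubertal group was highest in Ooep and Tle6, and the control group in Mos. No neighbours in any of these orders differed beyond their spread.

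**Figure D2:**
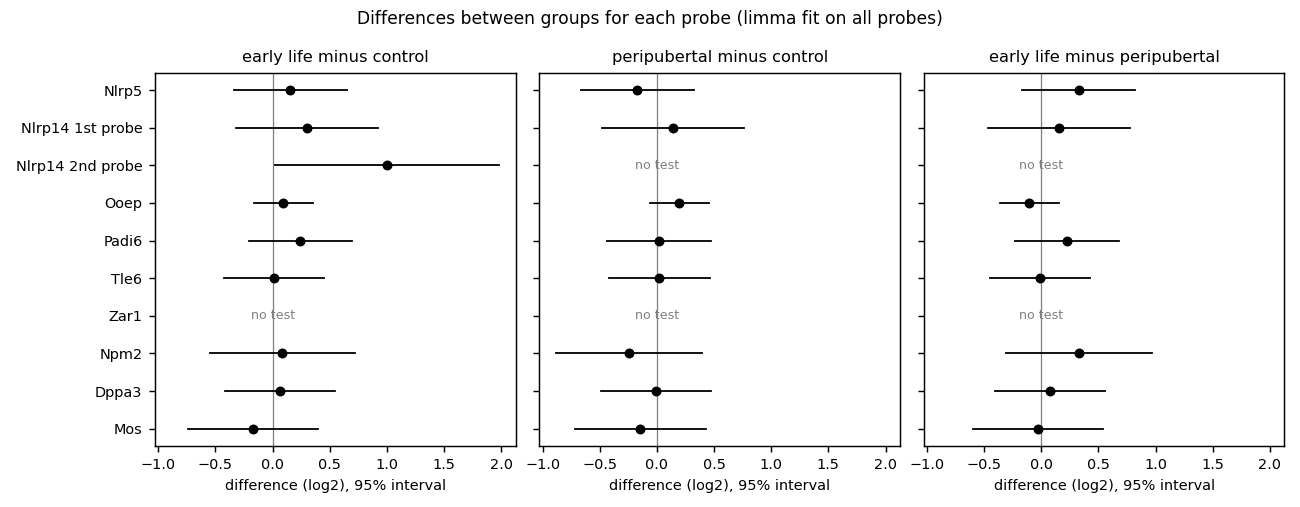
Difference between group means (log2) with its 95% interval for each probe, from the limma fit on all probes, in the 3 comparisons. The intervals include 0 except that of the second Nlrp14 probe in early life minus control, 0.022 to 1.98, which rests on 2 control values and did not pass after adjustment. Zar1 has no test.

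Variation between single samples was larger and was shared by the members. Taking each member's deviation from its own mean over the 12 samples and averaging over 8 members (all but Zar1, with the first probe for Nlrp14), E2 stood 0.51 above the mean, C2 0.34 above and E1 0.20 above. At the other end lay E4 at -0.35, C3 at -0.22, P2 at -0.20 and C4 at -0.19. E2 was highest in 6 of the 8 members and among the 2 highest in all 8, while E4 was lowest in 4 and among the 3 lowest in 7. Early-life ovaries had an SD of 0.37 in this mean, control ovaries 0.26 and peripubertal ovaries 0.11. The difference in spread was not tested.

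After adjustment for dye, each member's correlation with the mean of the other members over the 12 samples was 0.64 (Ooep) to 0.90 (Npm2), and 0.78 to 0.94 when deviations from group means were taken. These correlations are descriptions, since the values of a sample share an ovary, a labelling reaction and an array. Slopes on the mean of the others ran from 0.35 for Ooep to 1.49 for Npm2, with Nlrp14 at 1.32, Mos at 1.16 and Nlrp5 at 0.99. After the common part, the mean of all 8 members, was subtracted, the SD of a member over the 12 samples was 0.10 to 0.18. That mean includes the member itself, and for Ooep the SD rose from 0.15 to 0.18. In 7 of the 8 members the SD over the 12 samples was above the median SD of all genes, 0.22. Ooep, at 0.15, was below it.

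Other genes of the oocyte followed the same samples. The list of other subcortical complex and NLRP genes held 12 genes, of which 11 passed the filter on dim probes. In the 3 comparisons 0 of these 11 passed the test, with medians of 0.25, 0.075 and 0.23 in the order early-life minus control, peripubertal minus control and early-life minus peripubertal. Khdc3 (FILIA), the partner of the complex, differed by 0.34 ± 0.25 (SE; limma, adjusted p = 0.534) between early-life and control ovaries on 3 controls, also without C2. Nlrp9a, an oocyte NLRP gene, measured 9.76, 10.05, 9.28 and 9.10 in E1 to E4 and 8.91, 8.90, 8.74 and 9.14 in P1 to P4. It had the smallest p of this list, for early-life minus peripubertal (0.62 ± 0.22, SE; limma, unadjusted p = 0.0188 and adjusted p = 0.141), with E4 under P4.

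Of 23 measured genes of the list of other stored oocyte transcripts, 0 passed in any comparison, with medians of 0.28, -0.058 and 0.33 in the same order. Early-life exceeded control in 21 of the 23, against 45.8% of all genes. These genes varied together over the same ovaries, so the count does not stand for 23 separate observations. The mean deviation of the 17 with complete values overlapped, at -0.22 to 0.69 in early-life and -0.44 to 0.37 in control ovaries. Kpna7, an oocyte importin, measured 10.72, 10.98, 9.84 and 10.40 in E1 to E4 and 9.37, 8.83, 10.02 and 9.55 in P1 to P4, with P3 above E3. Its difference was 1.05 ± 0.39 (SE; limma, adjusted p = 0.151). Gtsf1, a factor of the piRNA pathway, differed by 0.48 ± 0.19 (SE; adjusted p = 0.175) in the same comparison. Bcl2l10, a BCL2 family protein of oocytes, had the smallest p of the list between early-life and control ovaries (0.69 ± 0.33, SE; adjusted p = 0.386), on 3 controls, without a value in C2.

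All 5 zona pellucida and growth factor genes were measured, and 0 passed. Zp3, the sperm-binding zona protein, differed by 0.027 ± 0.24 (SE) between early-life and control ovaries, but E1 and E2 had no value, so that this rests on E3 and E4 against 4 controls. The zona gene Zp1, with all 12 values, differed by 0.39 ± 0.23. For Gdf9 and Bmp15, growth factors that the oocyte secretes to the granulosa cells, these differences were 0.24 ± 0.25 and 0.37 ± 0.36. Among 8 oocyte transcription factors 0 passed, and 1, Taf4b, a TFIID subunit of germ cells, had an unadjusted p under 0.05 (0.40 ± 0.15, SE, for early-life minus control; adjusted p = 0.292). Figla differed by 0.31 ± 0.25 and Nobox by 0.23 ± 0.27 in that comparison.

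**Figure D3:**
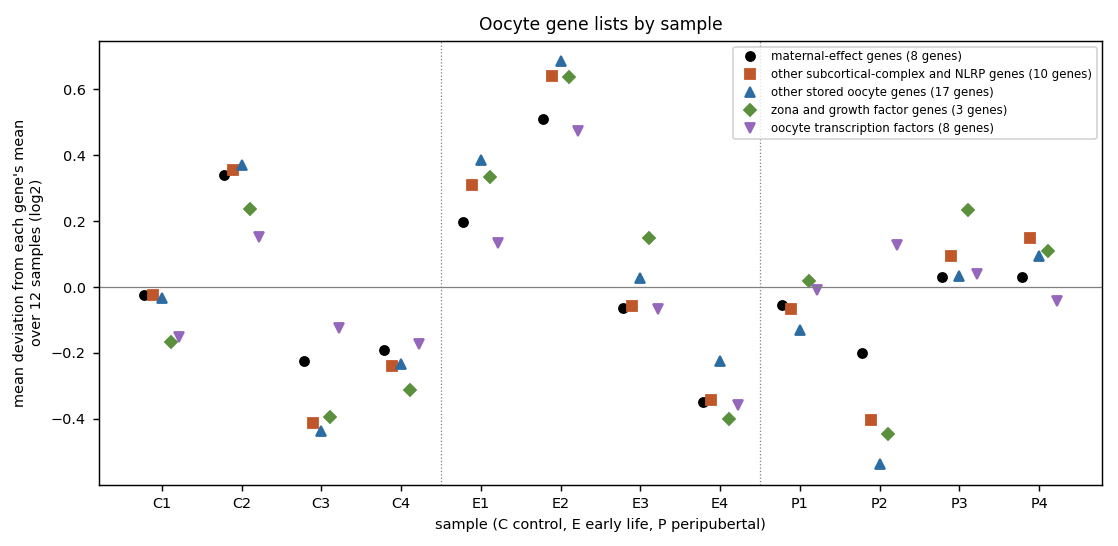
Mean deviation (log2) of each oocyte gene list from the genes' own means over the 12 samples, by sample, for genes with a value in every sample. In the maternal-effect genes E2 (0.51) and C2 (0.34) were highest and E4 (-0.35) lowest, and the lists of other NLRP and other stored genes were also highest in E2 (0.64 and 0.69).

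Likeness to the maternal-effect genes was measured as Pearson's correlation over the 12 samples, after adjustment for dye, between a gene and the mean of the 8 members. Among 15796 genes with a value in every sample the median correlation was -0.016 and the 99th percentile 0.872. The 10 genes with a RefSeq symbol that were most alike, with 1 transcript without such a symbol ranked among them and left out, were Gm13391, Pramel13, Ninj2, Khdc1c, Lypd3, Nlrp4b, Evx1, Cpa1, Cpsf4l and Nlrp4a, with correlations of 0.959 to 0.977 and rank correlations of 0.881 to 0.986. Without E2 and E4, the samples farthest from the median of the members, the correlations were 0.934 to 0.967. Nlrp4b and Nlrp4a are on the list of NLRP genes, Pramel13 belongs to the PRAME-like family, Khdc1c to a family of KH-domain proteins, Evx1 is a homeobox gene and Cpa1 a carboxypeptidase.

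By list, 7 of 10 other subcortical complex and NLRP genes, 11 of 17 other stored transcripts and all 3 zona and growth factor genes with complete values lay in the top 1 percent of genes by likeness. The 8 oocyte transcription factors ranged widely. Nobox (0.950) and Lhx8 (0.940), homeobox factors of the oocyte, and Pou5f1 (0.912) were in the top 1 percent, while Tbpl2 (0.762), Figla (0.393), Taf4b (0.386), Sohlh1 (0.308) and Sohlh2 (-0.036) were not. None of the markers of granulosa, luteal, theca, oviduct, endothelial, smooth muscle, fat, red blood or macrophage cells with complete values reached it, with Amh, the anti-Müllerian hormone of granulosa cells, highest at 0.593. Complete values were held by only 2 granulosa markers, Amh and Foxl2, and for theca by Ptch1 and Cyp11a1. The other granulosa markers were not compared.

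Markers of other cells differed between the same ovaries. All 7 oviduct epithelium markers passed the filter, and the mean deviation of the 5 with complete values was -1.50 to 0.84 in control, -0.23 to 3.09 in early-life and -1.81 to -1.12 in peripubertal ovaries. Of the 7, 1 passed the test, as higher in early-life than in peripubertal ovaries. In that comparison 2.43% of all genes were called, and slide and diet cannot be told apart. E4, lowest in maternal-effect genes, had the highest oviduct score, 3.09, and E2, highest in maternal-effect genes, had the lowest of its group, -0.23. E1, however, scored 2.54 on the oviduct markers, and in maternal-effect genes only E2 and C2 were higher. C3 scored -1.50 and was among the lowest in maternal-effect genes. For the 6 macrophage markers the mean was -0.47 to 0.58 in control, -0.82 to -0.41 in early-life and 0.19 to 0.79 in peripubertal ovaries. Of the 6, 4 passed the test as lower in early-life than in peripubertal ovaries, against the same 2.43% of all genes. For 4 of 5 fat cell markers past the filter the mean was -2.25 to -0.27 in control and 0.24 to 2.68 in early-life ovaries, and for peripubertal ovaries -1.52 to 0.98. Of these 4, 0 passed the test in any comparison (limma, lowest adjusted p = 0.320). For early-life minus control 3 were positive, and Plin1 was not, at -0.038. Among single genes with 4 values a group, 12.3% lay fully apart between early-life and control. All 8 granulosa markers passed the filter, and 0 of them passed the test in any comparison. The smallest p among them was that of Foxl2, a granulosa transcription factor, which differed by -0.51 ± 0.20 (SE; limma, unadjusted p = 0.0303 and adjusted p = 0.171) for early-life minus peripubertal. The part of other tissue in the levels of the maternal-effect genes was not tested.

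**Figure D4:**
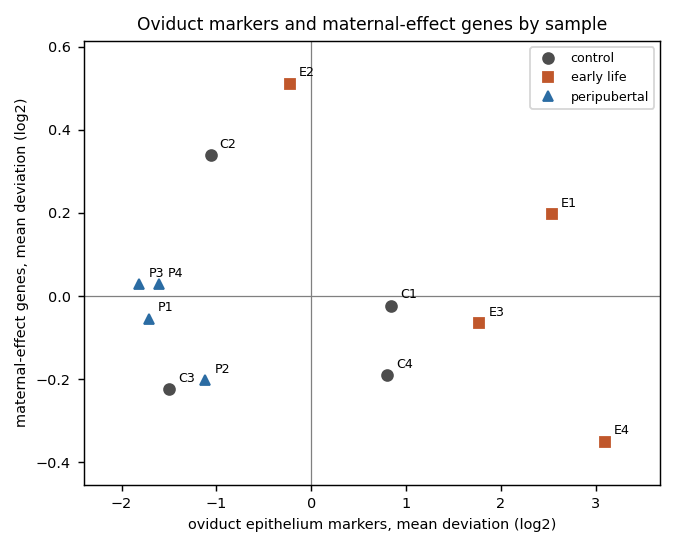
Mean deviation (log2) of 5 oviduct epithelium markers (horizontal) and of 8 maternal-effect genes (vertical) in each of the 12 ovaries. E4 lies at 3.09 and -0.35 and E2 at -0.23 and 0.51, while E1 has both a high oviduct score (2.54) and a high level of maternal-effect genes (0.20).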

How the data were processed

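Scanner output deposited for each array holds the mean signal and median local background of every spot as intensity, before normalization, with outlier marks, from Agilent Feature Extraction 11.0.1.1 per the file headers. A deposited value table gives log2 values centred on a median of 0 per column. Its making is not given in the sources used here, and the scale and origin of its peripubertal columns stay unknown. It was used as an alternative and to check names.

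The work was done in R 4.3.3 with limma 3.58.1, statmod 1.5.0 and data.table (version 1.17.8). Background correction used normexp (offset 50), and arrays were normalized by loess and Aquantile, with channels treated as separate log2 values. Outlier spots (2.16% to 4.28% of a channel) were left out. The filter required a probe to stand well above background in 4 or more of 12 samples (24664 probes), and 19054 genes were each read by their brightest probe. A single limma fit compared the 3 groups, with dye as covariate and a random block for the array (correlation 0.286). The p-values were adjusted by Benjamini-Hochberg over all genes at a threshold of 0.05. A gene with no value in a group was not tested against it. Intervals are at 95% and come from the same model fitted to all probes. The p-values beside them are those of the fit on genes, unless marked as over all probes. Precision is limited by the 6 arrays. The fit was tested on simulated data.

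The genes and lists were chosen with earlier results of these data known. Named are all 9 maternal-effect genes, Zp3, Gdf9, Bmp15, Figla, Nobox, Khdc3, up to 4 genes of each other oocyte list by smallest p, and the 10 most alike. Other likeness values were named after they were seen. Alternatives were other background, scaling, filter, probe, dye and block settings, exchanged arrays, the value table and leaving out samples.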

Additional observations from a re-analysis of the deposited data

Results flagged for a closer look

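In 25 groups of 4 values, over the 10 probes, the highest or lowest sample was set against its neighbours by Dixon's gap ratio, which chance passes in about 1 in 20 groups. It picked out 1 sample. On the first Nlrp14 probe the control ovary C2 measured 10.93, against 10.27 to 10.35 in the other 3 controls (gap ratio 0.880). C2 was also among the 2 highest samples in 5 of 8 maternal-effect genes. On the second Nlrp14 probe its spot had been set aside, which removes this ovary from the comparison of that probe.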

How the results depend on the processing

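No maternal-effect gene was called under any of 29 alternatives for early-life minus control (lowest adjusted p 0.210) or 27 for each of the other comparisons (0.375 for peripubertal minus control and 0.134 for early-life minus peripubertal). Signs of single members were less stable, turning in 25 of 224, 16 of 182 and 13 of 182 values with the exchanged arrays left out. The median over members moved by less than 0.27 throughout, the pooled SD within groups of the members' mean in single samples. It ran from -0.16 to 0.26, from -0.17 to 0.079 and from -0.16 to 0.25, and leaving out single samples gave -0.017 to 0.26, -0.097 to 0.079 and -0.077 to 0.25. Besides these, it turned for early-life minus control with median scaling only (-0.049) and, added after seeing the data, without the array of E1 and E2 (-0.16, and -0.16 for early-life minus peripubertal). For peripubertal minus control it turned to 0.0025 with the mean of all probes or the probe with the fewest missing values. Median scaling moved the median of all genes for early-life minus control from -0.022 to -0.13, under the members' -0.049. For peripubertal minus control it gave -0.066 for all genes and -0.15 for the members. The value table, with its names the other way round, gave -0.052 for early-life minus control. Counts over all genes varied far more over the alternatives, from 0 to 111, 0 to 459 and 2 to 2086 genes called. These ranges include the exchanged arrays and the fits with samples left out. Samples with the same number were not shown to be paired, since their deviations correlated at -0.35 to 0.54 (median 0.056, against 0.025 for different numbers). With the replicate number as a block 0 members were called, the medians were 0.090, -0.012 and 0.078, and all genes called were 0, 12 and 608 against 4, 50 and 459. Signal over background limits Ooep most.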

Other observations

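In the deposited value table, whose 4 peripubertal columns match no array given here, the maternal-effect genes were much lower in those columns than in the 8 control and early-life columns. Values are given as log2 with the median of each column at 0, the peripubertal columns included, but how these columns were made is unknown. Since they match no array, the gap is not a level difference shown for peripubertal ovaries. Tle6 averaged 5.73 (range 4.69 to 6.41) over the 8 columns and 1.64 (0.98 to 2.49) over the 4. Nlrp5 averaged 3.89 over the 8 and -2.27 over the 4. Npm2 averaged 4.11 and -1.06. Zar1, both Nlrp14 probes, Dppa3 and Mos had a value in only 2 of the 4 peripubertal columns. Ooep differed little, at -1.59 and -1.96. The peripubertal scanner arrays show no such gap, as Nlrp5 averaged 11.96 there against 12.13 and 12.28.

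Among the 8 oocyte transcription factors, P2 was not uniformly high or low, a pattern picked after the values were seen. Figla measured 8.41 and Sohlh1 9.68 in P2, each the highest of the 12 ovaries, and Tbpl2 measured 7.57, exceeded only by E2. Nobox (9.86), Pou5f1 (8.22) and Lhx8 (9.47) were among the 4 lowest of their 12 values there. The maternal-effect genes also differed in P2, which was the lowest of the 12 ovaries in Nlrp14 (first probe) and Npm2 but 3rd highest in Dppa3. These values come from a single ovary, and the difference between genes was not tested.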
